A study of Mus musculus with 17 samples.

Results

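The comparison described here is between the 2 control groups of a study on tyrosine kinase 2 (Tyk2) in colitis-associated colorectal cancer, 3 Tyk2wt and 7 Tyk2fl libraries, which make up 10 of the 17 RNA-seq libraries of the series. They were chosen by genotype label and by count table. The Tyk2wt tumors are the controls of mice with a germline deletion of Tyk2 (Tyk2KO, 3 libraries), and the Tyk2fl tumors are the controls of mice with a deletion in intestinal epithelial cells (Tyk2DIEC, 4 libraries). By the methods of the study, Tyk2wt mice are littermates from crosses of heterozygous carriers of the deleted allele. Tyk2fl mice carry loxP sites around part of Tyk2 on both chromosomes but no Cre, and in their Tyk2DIEC littermates Cre is driven by the Villin promoter, which is active in intestinal epithelium. All mice are on a C57BL/6 background, and all tumors arose in the colon after azoxymethane, a carcinogen, and dextran sulfate sodium, which injures the mucosa. Both control groups therefore keep Tyk2, and the question of the comparison is how far tumors differ that are not meant to differ in Tyk2. Labels and methods do not say that each library came from a separate animal, so the p-values below cover no more than the spread among these samples, which may be technical. Colony, sequencing depth, preparation and tissue sampling cannot be told apart from the group in this design. Sex-linked transcripts, given below, were not balanced between the groups either.

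Tyk2 is a Janus kinase. It is bound to the receptors of type I interferons, of interleukin 12 and 23 and of the interleukin 10 family, and passes their signal to Stat transcription factors. Type I interferons act on genes with interferon-stimulated response elements (ISRE). Interferon gamma acts through the kinases Jak1 and Jak2 on genes with gamma-activated sites (GAS). Both induce antiviral genes and the genes of MHC class I antigen presentation, and interferon gamma also induces MHC class II genes through Ciita. In colon tumors these transcripts come from epithelial cells and from the leukocytes, fibroblasts and vessels between them.

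Counts assigned to genes totalled 19789347 to 21318077 in Tyk2wt and 29777763 to 35427965 in Tyk2fl libraries, so the second group was sequenced deeper. Levels are given in CPM, counts relative to the size of the library, with TMM scaling factors (trimmed mean of M values) computed over all 17 libraries together. In a principal component analysis of the 10 libraries (500 most variable genes), component 1 explained 36.1% of the variance and separated the groups. On component 2, with 20.6%, Tyk2fl replicates 1 to 4 lay between -18.7 and -8.36 and replicates 5 to 7 between 16.7 and 22.1. Xist, transcribed from the inactive X chromosome, stood at 1209 to 1267 CPM in Tyk2fl replicates 1 to 3 and at 3.08 CPM or less in the other 7 libraries. Ddx3y, a Y-linked gene, was near 0 in Tyk2fl replicates 1 to 4. It lay between 66.5 and 90.4 CPM in Tyk2fl replicates 5 to 7 and between 79.3 and 97.5 CPM in Tyk2wt libraries. Tyk2fl replicate 4 thus held neither Xist at the level of replicates 1 to 3 nor Y-linked transcripts. The epithelial adhesion gene Epcam was at 2025 to 2128 CPM in Tyk2wt and 1763 to 2569 CPM in Tyk2fl libraries, so both groups held epithelium as labelled. Mitochondrially encoded transcripts took 2.08% to 2.56% of the counts in Tyk2wt and 2.50% to 4.88% in Tyk2fl libraries. Beyond a fit without mitochondrial, ribosomal protein and immunoglobulin genes, the part of this share in the results below was not tested.

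Tyk2 itself (ENSMUSG00000032175.11, chromosome 9 of GRCm38, 21104068 to 21131243, minus strand) was counted in every library. It was at 55.5, 56.1 and 57.7 CPM in the 3 Tyk2wt libraries and at 42.5 to 54.2 CPM, median 51.2, in the Tyk2fl libraries. The groups did not overlap, but the log2 fold change of -0.17 (standard error 0.08) did not pass the test (edgeR quasi-likelihood test, adjusted p = 0.216). After curves of GC content and exonic length had been fitted to each library, it was -0.27 with an adjusted p of 0.0473 in edgeR. Whole-gene counts do not check the genotype, since Tyk2KO libraries held 58.1 to 59.1 CPM of Tyk2 and Tyk2DIEC libraries 51.8 to 55.8 CPM.

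Interferon-induced, antigen-presentation and immunoglobulin genes were lower, and processed pseudogenes higher, in Tyk2fl than in Tyk2wt tumors. Of 17984 genes tested, 127 were higher (0.706%) and 152 lower (0.845%) in Tyk2fl than in Tyk2wt tumors at an adjusted p under 0.05 and more than 2-fold. At the adjusted p alone 378 were higher (2.1%) and 530 lower (2.95%). The groups did not overlap in 264 of the 279 called genes and in 12.9% of all genes tested. Of the genes called higher, 89 were processed pseudogenes and 28 protein coding, and of those called lower, 101 were protein coding and 31 immunoglobulin genes. The count past the adjusted p depended on single libraries. It fell from 908 to 440 without Tyk2wt replicate 1, to 206 without replicate 2 and to 47 without replicate 3. A fit with fewer Tyk2wt libraries also has less power. Without Tyk2fl replicate 2 the count was 403, and without Tyk2fl replicate 7 it was 1488.

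Interferon-stimulated genes were lower in Tyk2fl tumors, and no member of the interferon and MHC lists was higher at the adjusted p. On the type I interferon list, 28 of 43 genes were lower at the adjusted p, against the 2.95% of all genes given above, and all 43 had a log2 fold change below 0. The median of the list was -0.83, beside 0.02 over all genes tested. Summed over the list, the level was 2099 to 3115 CPM in Tyk2wt and 1274 to 1804 CPM in Tyk2fl libraries. Of 28 interferon gamma-induced genes, 13 were lower, with a median of -1.27. Of 20 genes of MHC class I presentation 15 were lower (median -1.05), and of 11 of MHC class II presentation 6 were lower (median -1.24). In bulk tumors, fewer cells of a type and less RNA per cell cannot be told apart. Without Tyk2wt replicate 3, the library with the highest summed level of the type I list, 2 type I genes, no interferon gamma gene and no MHC gene passed, and the medians were -0.63 for type I and -1.01 for interferon gamma genes. Without Tyk2wt replicate 2, 10 type I, 1 interferon gamma, 2 MHC class I and 0 MHC class II genes passed, and without Tyk2wt replicate 1, 27, 3, 8 and 2. The medians stayed below 0 in each of these fits.

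Rsad2 encodes viperin, an antiviral enzyme, and passed the test with any single library left out. It was at 14.0, 16.3 and 29.95 CPM in Tyk2wt and between 4.97 and 8.05 CPM (median 6.11) in Tyk2fl libraries. The groups did not overlap, and the log2 fold change was -1.69 (standard error 0.21, adjusted p = 0.00273 in edgeR). Ifih1, the cytosolic RNA sensor MDA5, also passed without any single library. It was at 55.3, 65.5 and 75.2 CPM in Tyk2wt and 31.4 to 42.9 CPM (median 37.7) in Tyk2fl libraries, a change of -0.81 (standard error 0.11, adjusted p = 0.00453 in edgeR). Ifit2 binds to RNA and restrains translation of viral messages. Its level was 79.3, 78.7 and 124.3 CPM in Tyk2wt and 15.7 to 36.99 CPM in Tyk2fl libraries, and it changed by -1.79 (standard error 0.26, adjusted p = 0.00788 in edgeR). Without Tyk2wt replicate 3 its adjusted p was 0.0652. Ifi44, a further antiviral response gene, changed by -1.50 and Ddx60, a helicase, by -1.87, in both without overlap.

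**Figure D1:**
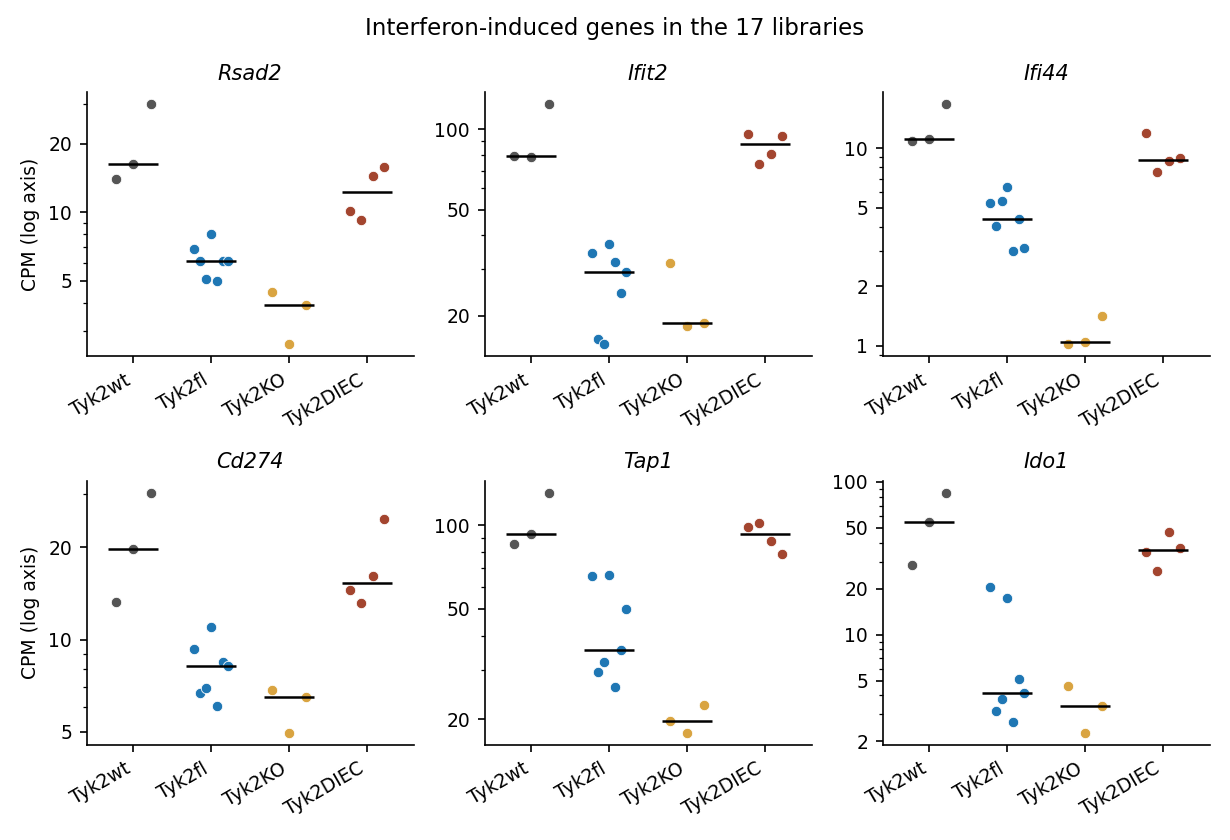
Level of 6 interferon-induced genes in CPM (y axis, log scale) in each library of the 4 groups (x axis), where points are libraries and bars are group medians. In each panel the 7 Tyk2fl libraries lie below the 3 Tyk2wt libraries, while Tyk2DIEC libraries lie above Tyk2KO libraries.

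Genes induced mainly by interferon gamma had a lower median and a wider range of changes. Ido1, which degrades tryptophan, was at 28.6, 54.3 and 85.2 CPM in Tyk2wt and 2.67 to 20.6 CPM (median 4.16) in Tyk2fl libraries, where replicates 1 and 4 stood at 20.6 and 17.5 CPM and the others at 5.09 CPM or less. The same replicates had the highest summed level of the interferon gamma list in their group, 1085 and 1173 CPM against 587.4 to 877.8 CPM. It changed by -2.77 (standard error 0.65, adjusted p = 0.0415 in edgeR) and passed in 2 of the 10 fits that each left out 1 library. Cd274, the checkpoint ligand PD-L1, was at 13.3, 19.8 and 30.2 CPM against 6.05 to 11.01 CPM and changed by -1.37. The GTPases Gbp7 and Tgtp1 changed by -1.05 and -2.24, both without overlap. Cxcl9, a chemokine that attracts T cells, was at 27.9 to 57.4 CPM in Tyk2wt and 5.41 to 37.8 CPM in Tyk2fl libraries. These ranges overlapped and the change of -1.32 did not pass (adjusted p = 0.20 in edgeR).

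For MHC class I the heavy chain gene H2-K1 was at 1204, 1465 and 1796 CPM in Tyk2wt and 454.8 to 949.5 CPM (median 622.4) in Tyk2fl libraries. It changed by -1.16 (standard error 0.21, adjusted p = 0.0155 in edgeR). Tap1, a subunit of the peptide transporter, was at 85.8, 93.4 and 131.3 CPM against 26.2 to 66.4 CPM and changed by -1.23. It passed in 4 of 10 fits without 1 library. H2-Q7, a nonclassical heavy chain, had the change of largest size among the named class I genes, at -2.40. Near-identical copies of H2-Q genes can share reads, so single values of this family are uncertain. Ciita, the transactivator of MHC class II genes, was at 14.3, 13.96 and 22.5 CPM in Tyk2wt and 2.79 to 9.54 CPM in Tyk2fl libraries, and changed by -1.53.

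Among 15 interferon and cytokine receptors and their kinases the list median was -0.06 and 2 passed, both lower. Il22ra1, the interleukin 22 receptor subunit of epithelial cells, was at 11.6, 17.8 and 17.3 CPM in Tyk2wt and 5.90 to 9.01 CPM in Tyk2fl libraries. It changed by -1.10 (standard error 0.17, adjusted p = 0.00836 in edgeR). Jak2, a kinase of the interferon gamma receptor, was at 117.5, 134.1 and 151.3 CPM against 79.7 to 101.6 CPM, a change of -0.50. Both groups stayed apart for each gene.

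**Figure D2:**
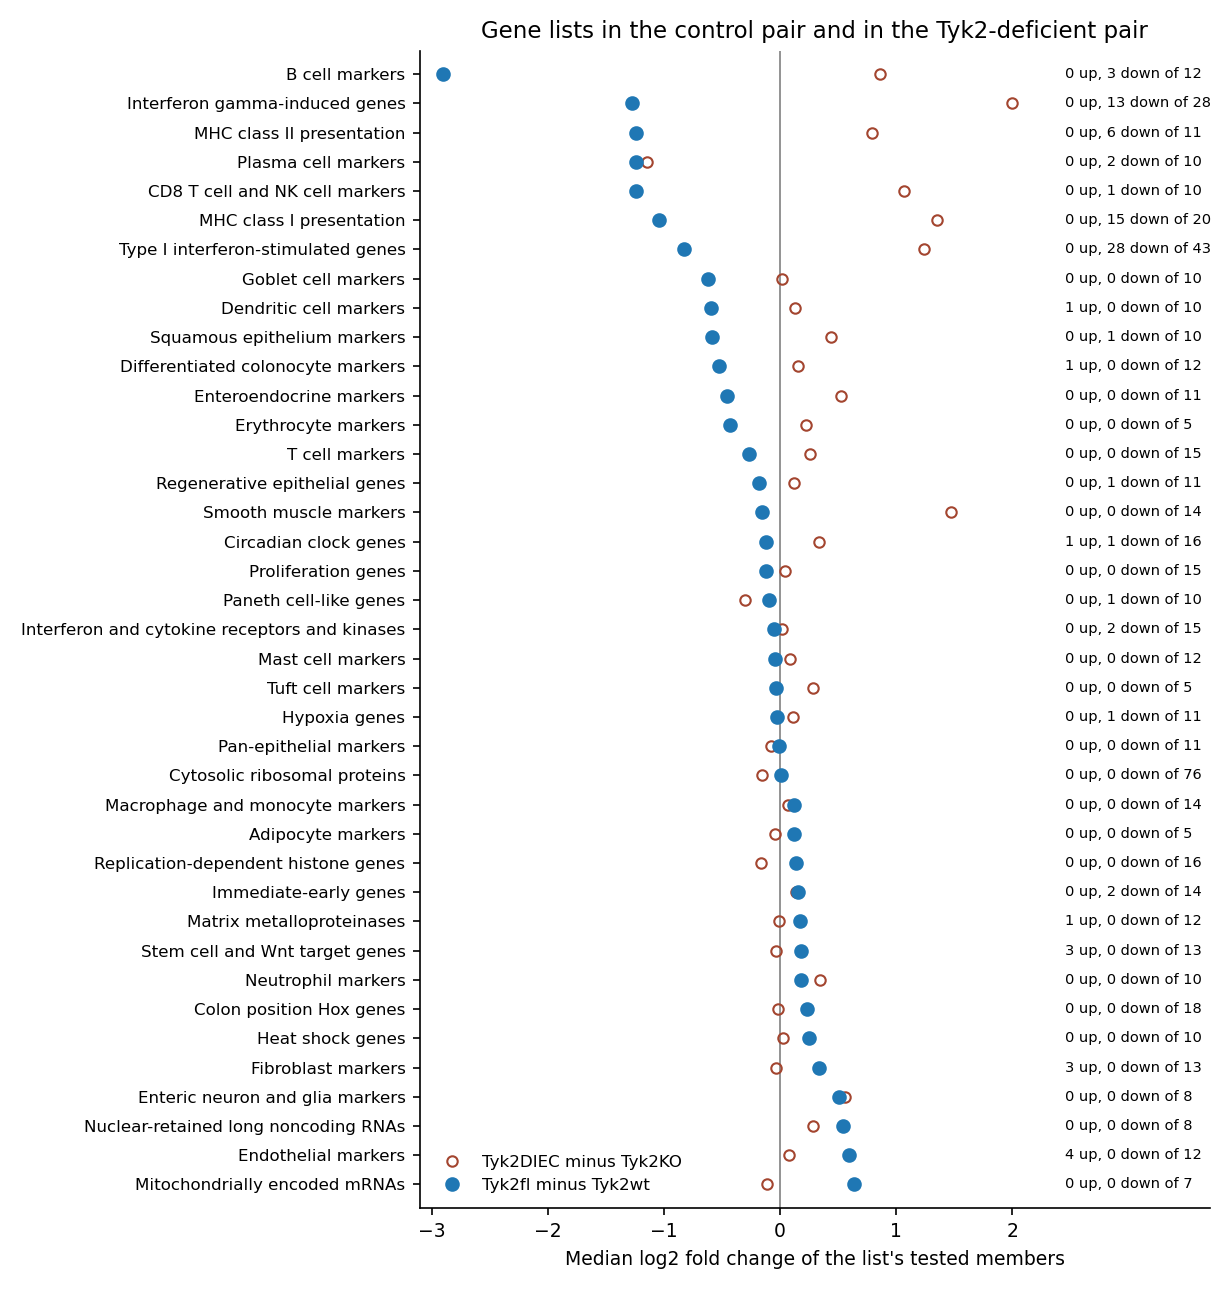
Median log2 fold change (x axis) over the tested members of each gene list (y axis) for Tyk2fl minus Tyk2wt (filled) and Tyk2DIEC minus Tyk2KO (open), with counts of members past the adjusted p in Tyk2fl against Tyk2wt at the right. The 4 lists of interferon-induced and MHC genes lie between -1.27 and -0.83 in the control pair and between 0.79 and 2.0 in the other pair.

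Promoter sequences of some of these genes hold the core letters of the ISRE named above and are shown as a description. The letters searched were GAAA, any 2 bases and again GAAA, on both strands (RefSeq, GRCm38.p6). For the genes named here the search covered the 250 bases before the start. For the counts of the next paragraph it ran from 250 bases before to 50 bases after the start of each gene. Each sequence below is 30 bases on the strand of the gene, 5′ to 3′, and the capitals mark the core.
Rsad2, chr12:26456553-26456582, minus strand: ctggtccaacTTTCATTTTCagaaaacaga
Ddx60, chr8:61928057-61928086, plus strand: ggagcagaagaGAAACCGAAActatccttc
Gbp7, chr3:142530273-142530302, plus strand: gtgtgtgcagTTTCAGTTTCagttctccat
H2-T22, chr17:36042914-36042943, minus strand: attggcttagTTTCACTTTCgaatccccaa
In Ddx60 the bases before the start held 2 cores, at 19 and 53 bases from it, of which 1 is shown. Ifit2, Ifi44, Ifih1, Cd274, H2-K1 and Tap1 had no match to these letters in the 250 bases before their starts.

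The core was present in 446 of 11550 tested protein-coding genes with a promoter sequence (3.86%). Among protein-coding genes called lower in Tyk2fl tumors it was present in 22 of 83 (26.5%), which were 13 of 28 interferon and MHC list members and 9 of 55 others (16.4%). Among protein-coding genes called higher it was present in 3 of 17 (17.65%). Of the type I list 17 of 31 genes held it and of the interferon gamma list 11 of 16. The GAS letters (TTC, any 3 bases, GAA, which read the same on both strands) were present in 8.44% of tested genes and in 7 of 16 genes of the interferon gamma list, 5 of 31 of the type I list and 1 of 16 of the MHC class I list. They were present in 10 of 83 genes called lower (12.05%) and 3 of 17 called higher (17.65%). A match describes the sequence only.

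In the remaining 7 libraries the same genes ran the other way. Tyk2DIEC tumors were compared with Tyk2KO tumors in a separate fit that shares no library with the first, although genotype also differs there. Of 16295 genes, 137 were higher (0.841%) and 16 lower (0.0982%) in Tyk2DIEC tumors, or 540 (3.31%) and 206 (1.26%) at the adjusted p alone. Of the 43 type I genes 38 were higher in Tyk2DIEC tumors, with a list median of 1.24, and of the interferon gamma genes 27 (median 2.0). In summed level the type I list was at 2045 to 2522 CPM in Tyk2DIEC and 1146 to 1313 CPM in Tyk2KO libraries, and the Tyk2fl range given above overlapped that of Tyk2KO and lay below that of Tyk2DIEC libraries. Of 37 members of the interferon and MHC lists called lower in Tyk2fl tumors, the level of Tyk2DIEC tumors was nearer to Tyk2wt than to Tyk2fl for 35, and that of Tyk2KO tumors for 1. Among all 152 genes called lower these counts were 87 and 43, and among the 66 other protein-coding genes 39 and 20. Past the adjusted p in both fits were 126 genes, which are 15.4% of the 818 found in the control pair and tested in both, and 16.96% of the 743 found in the other pair. Of these, 106 were lower in Tyk2fl and higher in Tyk2DIEC tumors, 58 of them members of the interferon and MHC lists.

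**Figure D3:**
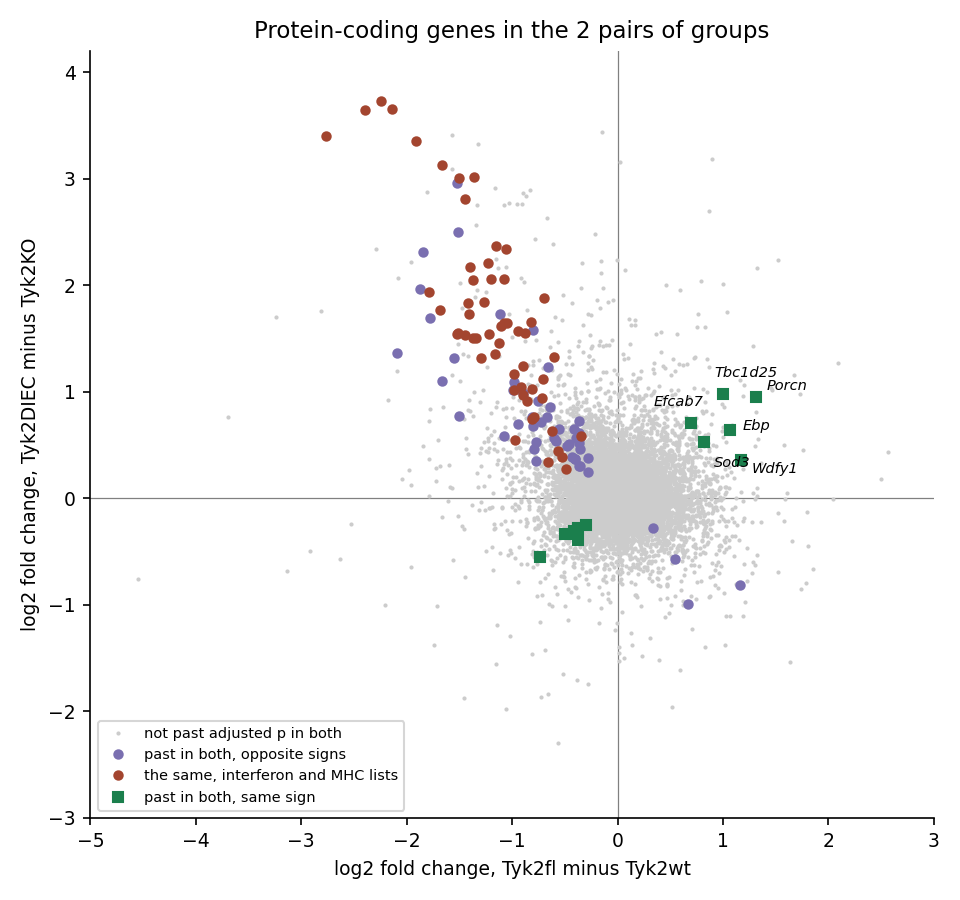
Log2 fold change of protein-coding genes in Tyk2fl minus Tyk2wt (x axis) and in Tyk2DIEC minus Tyk2KO tumors (y axis), with 2 genes outside the axes. Of the genes past the adjusted p in both, 105 have opposite signs (round points, 56 of them interferon and MHC list members in red) and 13 have the same sign (green squares).

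Immunoglobulin transcripts were lower in Tyk2fl tumors. Of 115 immunoglobulin genes tested 31 were called lower and none higher (edgeR), against 0.845% of all genes called lower, with a median of -1.54. Immunoglobulin genes took 0.113% to 0.184% of the counts in Tyk2wt and 0.018% to 0.125% in Tyk2fl libraries. Ighg2c, the constant region of an IgG heavy chain, was at 4.17, 3.13 and 9.15 CPM in Tyk2wt and 0.149 to 1.16 CPM in Tyk2fl libraries, a change of -3.26 (standard error 0.49, adjusted p = 0.00788 in edgeR). Without Tyk2wt replicate 3 its adjusted p was 0.0722, and 0 of the 10 plasma cell markers tested passed in edgeR. Jchain, which joins IgA and IgM units, was at 264.1, 250.1 and 207.1 CPM against 20.2 to 127.4 CPM (median 79.8) and changed by -1.71 (adjusted p = 0.0407 in edgeR), but passed in 3 of 10 fits without 1 library. The other pair had the same sign, with a median of -1.61 over 72 immunoglobulin genes. There 9 were called lower in Tyk2DIEC tumors, against 0.0982% of all genes. The groups of that pair overlapped in the share of counts on immunoglobulin genes. It was 0.1202% in Tyk2DIEC replicate 1, 0.0036% to 0.02% in the other Tyk2DIEC libraries and 0.0495% to 0.1562% in Tyk2KO libraries. Jchain overlapped too, at 5.20 to 157.2 CPM in Tyk2DIEC and 64.5 to 197.5 CPM in Tyk2KO libraries.

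B cell markers had the lowest list median, -2.90 over 12 genes, and none of the 12 separated the groups. Of these, 3 passed and were lower, namely Spib, Cd79b and Pax5, against 2.95% of all genes. Spib, a transcription factor of B cells, was at 1.15, 9.60 and 13.5 CPM in Tyk2wt and 0.195 to 2.47 CPM in Tyk2fl libraries. Summed over the list, the level was 16.8, 15.3 and 87.4 CPM in the Tyk2wt libraries and 2.31 to 16.9 CPM in the Tyk2fl libraries, where replicate 4 was the highest. Thus Tyk2wt replicate 3 held most of the B cell signal of its group, and without it 0 of the 12 passed in edgeR. Pou2af1, a B cell coactivator, did separate the groups, at 3.45, 3.18 and 10.8 CPM against 0.376 to 2.56 CPM.

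Markers of cytotoxic lymphocytes were low in all libraries. On the list of markers for CD8 T cells and NK cells, 1 of 10 tested genes passed, with a list median of -1.24. It was Klrd1, an NK cell receptor, at 2.11, 2.05 and 2.02 CPM in Tyk2wt and 0.594 to 1.16 CPM in Tyk2fl libraries. It did not pass without any 1 of the 3 Tyk2wt libraries (adjusted p up to 0.1001 in edgeR). Cd8a, the CD8 co-receptor, was at 1.34, 1.75 and 3.37 CPM against 0.0594 to 1.12 CPM. The groups did not overlap, but its change of -2.09 missed the threshold (standard error 0.55, adjusted p = 0.0505 in edgeR) and passed with DESeq2 (adjusted p = 0.00812). Of 15 general T cell markers and 14 macrophage and monocyte markers none passed in edgeR, with medians of -0.27 and 0.12.

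Genes of fibroblasts, vessels and Wnt signalling were higher in Tyk2fl tumors where they passed. Of 13 fibroblast markers 3 were higher (median 0.34), against 2.1% of all genes. Col1a1, the alpha 1 chain of type I collagen, was at 231.5, 257.9 and 184.9 CPM in Tyk2wt and 320.1 to 576.1 CPM (median 483.0) in Tyk2fl libraries. It changed by 1.104 (standard error 0.16, adjusted p = 0.00650 in edgeR). Col1a2, its partner chain, changed by 0.81 and Thy1, a surface protein of fibroblasts, by 0.80. Of 12 endothelial markers 4 were higher (median 0.60, none below 0). Plvap, which forms the diaphragms of fenestrated vessels, was at 16.9, 24.1 and 15.6 CPM against 28.5 to 41.8 CPM. It changed by 0.96 (standard error 0.16, adjusted p = 0.0107 in edgeR). Smooth muscle markers did not pass in edgeR (0 of 14, median -0.15). Without Tyk2wt replicate 3 no fibroblast or endothelial marker passed. Without Tyk2wt replicate 1 these were 1 and 2 genes, and without replicate 2 they were 1 and 5.

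Of 13 stem cell and Wnt target genes 3 were higher, against 2.1% of all genes, with a median of 0.18. Notum, a secreted Wnt inhibitor, was at 299.3, 352.7 and 279.2 CPM in Tyk2wt and 413.6 to 658.1 CPM in Tyk2fl libraries. It changed by 0.67 (standard error 0.14, adjusted p = 0.0204 in edgeR). Nkd1, a feedback inhibitor of Wnt signalling, changed by 0.44 and Sp5, a transcription factor downstream of it, by 0.55. None of the list passed without Tyk2wt replicate 1 or 3. Markers of the epithelium as a whole did not pass in edgeR (0 of 11, median -0.01). Of 10 Paneth cell-like genes, with a median of -0.10 and changes from -1.24 to 2.56, the lysozyme gene Lyz1 passed and was lower by 0.86 on the log2 scale. Its groups overlapped, at 1246 to 1655 CPM in Tyk2wt and 588.3 to 1314 CPM in Tyk2fl libraries, and it passed in 1 of 10 fits without 1 library. The change of Krt4, a keratin found in stratified epithelium, was -1.65.

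Some protein-coding genes with large changes belong to none of these groups. Gm15446, a predicted protein-coding gene on chromosome 5, was at 7.38, 2.93 and 4.48 CPM in Tyk2wt and 0.0313 to 0.445 CPM (median 0.199) in Tyk2fl libraries. Its change of -4.55 (standard error 0.46, adjusted p = 0.000681 in edgeR) passed without any single library. In Tyk2KO libraries it was at 8.28 to 10.3 CPM, but it ranged from 0.460 to 16.98 CPM in Tyk2DIEC libraries. Tppp3, which binds tubulin, was at 16.2, 30.1 and 29.0 CPM in Tyk2wt and 4.79 to 7.95 CPM in Tyk2fl libraries. Its change of -1.98 (standard error 0.20, adjusted p = 0.000632 in edgeR) also passed without any single library. Lars2, the mitochondrial leucyl-tRNA synthetase, changed by -1.96, and its level of 908.8 CPM in Tyk2wt replicate 2 stood far above the 182.3 and 247.7 CPM of the other two. Among the higher genes Angpt4, a ligand of the vascular receptor Tie2, changed by 1.81 and Cd59a, an inhibitor of complement, by 1.51.

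A small set of genes differed in the same direction in both pairs, Tyk2fl against Tyk2wt and Tyk2DIEC against Tyk2KO. Past the adjusted p in both fits, 7 genes were higher and 9 lower in both, and they were named after their values had been seen. For Nek7, Efcab7, Sod3, Acpp and Igkv4-63 among them, the libraries of the floxed line (Tyk2fl and Tyk2DIEC) overlapped those of the germline line (Tyk2wt and Tyk2KO). Ebp, an isomerase of cholesterol synthesis, was at 63.5, 63.0 and 63.8 CPM in Tyk2wt and 118.7 to 168.5 CPM (median 126.0) in Tyk2fl libraries. It changed by 1.07 (standard error 0.11, adjusted p = 0.000632 in edgeR). In the other pair it was at 63.1 to 78.4 CPM in Tyk2KO and 100.4 to 114.4 CPM in Tyk2DIEC libraries, a change of 0.64 (adjusted p = 0.00378 in edgeR). The 11 libraries of the floxed line thus lay above the 6 of the germline line.

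Ebp lies on chromosome X (GRCm38, 8185329 to 8193512) and its direct neighbours Porcn and Tbc1d25 behaved alike. Porcn, the acyltransferase that lipidates Wnt proteins (8193848 to 8206525), was at 3.07, 4.16 and 3.61 CPM in Tyk2wt and 7.50 to 10.4 CPM in Tyk2fl libraries. It changed by 1.31 in the control pair and by 0.95 in the other. Tbc1d25, a Rab GTPase-activating protein (8154472 to 8176181), changed by 1.00 and 0.98. Its adjusted p in the control pair was 0.0704 without Tyk2wt replicate 3. Of 7 genes tested in a window around them these 3 passed, against 2.1% of all genes higher at the adjusted p. The window was drawn around these 3 genes after their values had been seen, so their count in it was set by that choice. Wdr13, Rbm3, Rbm3os and Ftsj1 in the same window had adjusted p values of 0.527 to 0.968 in edgeR. On chromosome 1, Wdfy1, an endosomal adaptor protein, was at 39.0, 30.3 and 31.6 CPM in Tyk2wt and 61.4 to 84.8 CPM in Tyk2fl libraries. It changed by 1.17 in the control pair and by 0.36 in the other.

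**Figure D4:**
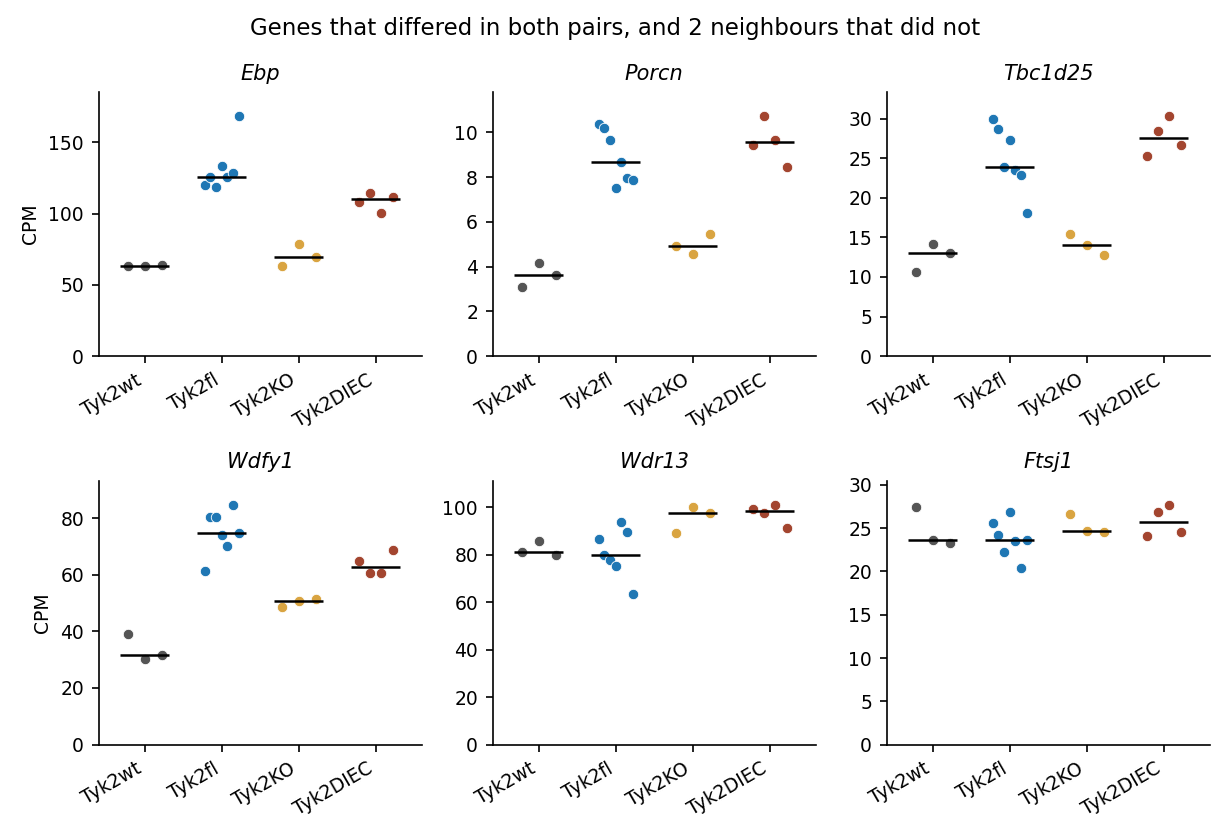
Level in CPM (y axis, from 0) of Ebp, Porcn, Tbc1d25 and Wdfy1 and of the neighbours Wdr13 and Ftsj1 in each library of the 4 groups (x axis), where points are libraries and bars are group medians. Ebp, Porcn and Tbc1d25 are higher in every Tyk2fl and Tyk2DIEC library than in any Tyk2wt or Tyk2KO library, whereas Wdr13 and Ftsj1 overlap between Tyk2wt and Tyk2fl.

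Over 14148 protein-coding genes tested in both pairs, 26 had all 11 floxed-line libraries above all 6 germline-line libraries and 42 had them below. Around Tyk2 itself, within 10 Mb on either side, 3 of 127 genes tested were higher and 3 lower in Tyk2fl tumors (4.72%), a share near that of the 908 genes past the adjusted p among all 17984.

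Processed pseudogenes, which are copies of spliced messages inserted in the genome, were higher in Tyk2fl tumors. Of 742 tested, 89 were called higher and 2 lower, against 0.706% and 0.845% of all genes. Their median was 0.57, and 78.7% had a change above 0. For 68 of the 89 the 7 Tyk2fl libraries lay above all 10 other libraries, those of Tyk2DIEC tumors of the same line included. All 89 lay apart from the Tyk2wt libraries, against which they had been called. The count was 77 of all 127 genes called higher and 7 of the 28 protein-coding ones. As a share of all counts, processed pseudogenes took 0.0937% to 0.109% in Tyk2wt and 0.135% to 0.151% in Tyk2fl libraries, and between 0.0934% and 0.101% in Tyk2DIEC and Tyk2KO libraries. AC122119.2, a processed pseudogene on chromosome 19, was at 0.336, 0.154 and 0.433 CPM in Tyk2wt and 10.03 to 12.2 CPM in Tyk2fl libraries. It changed by 5.17 (standard error 0.24, adjusted p = 7.73e-07 in edgeR), the smallest adjusted p of the genes named here, and was at 0.193 to 0.695 CPM in the other 7 libraries. Cbx3-ps2 had no count in the 3 Tyk2wt libraries and 0.407 to 2.31 CPM in Tyk2fl libraries, yet it was also at 0.920 to 2.01 CPM in Tyk2DIEC and Tyk2KO libraries. Rbm8a2, a copy of Rbm8a annotated as protein coding, was at 0.289 to 0.431 CPM in Tyk2wt and 1.60 to 2.91 CPM in Tyk2fl libraries. Reads of such copies can come from the parent message, so their single values are uncertain. After thinning of the Tyk2fl libraries to the Tyk2wt depth, 67 of 513 tested were called higher, with a median of 0.52. The number called higher was 46 of 831, 34 of 831 and 19 of 830 without Tyk2wt replicates 1, 2 and 3. Without Tyk2fl replicate 2 it was 57 of 713. Over all genes tested, the numbers called higher in these fits were 114, 64, 50, 23 and 76.

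The change also followed base composition. Over 5 equal classes of protein-coding genes by exonic GC content, from low to high, the median log2 fold change of Tyk2fl minus Tyk2wt was -0.15, -0.06, 0.01, 0.08 and 0.16. At the adjusted p 9 genes were higher and 265 lower in the lowest class, and 134 higher and 11 lower in the highest. In Tyk2DIEC minus Tyk2KO tumors the medians ran from -0.02 to 0.05 with no such order. Over 5 classes of exonic length, shortest to longest, the medians fell from 0.07 to -0.07 in Tyk2fl minus Tyk2wt. By length they rose from -0.09 to 0.09 in Tyk2DIEC minus Tyk2KO tumors. After curves of GC content and length per library, a setting chosen after these medians had been seen, 547 genes passed the adjusted p in place of 908, and 70 processed pseudogenes were called higher. Of the interferon lists 25 type I, 5 interferon gamma, 14 MHC class I and 4 MHC class II genes were then lower, with medians of -0.77, -1.18, -1.08 and -1.35. Of the fibroblast, endothelial and Wnt lists 1, 3 and 1 genes were then higher. The part of GC content and length in these results was not tested further.

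**Figure D5:**
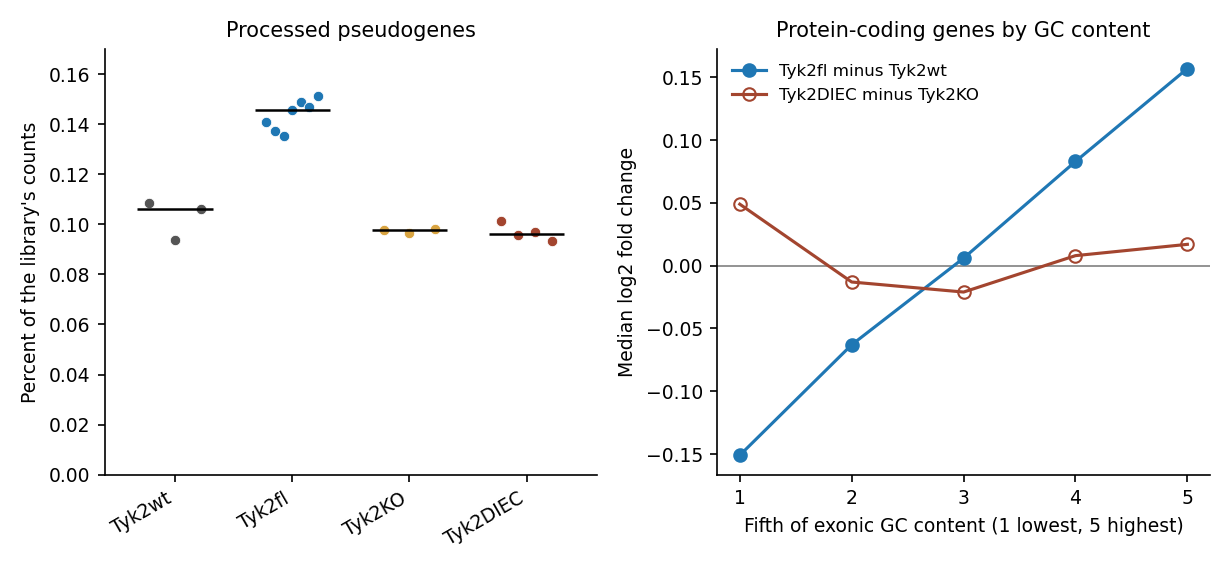
Left, share of each library's counts on processed pseudogenes in percent (y axis) by group, where points are libraries and bars are medians. Right, median log2 fold change (y axis) over 5 equal classes of protein-coding genes by exonic GC content (x axis, lowest to highest), which rises from -0.15 to 0.16 in Tyk2fl minus Tyk2wt (filled) and stays between -0.02 and 0.05 in Tyk2DIEC minus Tyk2KO (open).

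With Tyk2fl replicates 5 to 7 alone, which like the Tyk2wt libraries hold Y-linked transcripts, 135 genes were higher and 187 lower. This setting was chosen after the sex-linked counts had been seen. Of the interferon lists 14 type I, 21 interferon gamma, 14 MHC class I and 6 MHC class II genes were then lower, and the type I median was -0.88. With Tyk2fl replicates 4 to 7 alone, 11, 5, 10 and 2 genes of these lists were lower, and the type I median was -0.81.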

How the data were processed

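RNA was measured in colon tumors with poly(A) selection, directional libraries and single-end reads, by the methods of the study. The authors aligned reads with STAR 2.6.1a to GRCm38 (submitters' processing notes) and deposited raw counts per gene for 55421 genes, in 1 table per experiment, neither normalized nor filtered. The 17 single-sample tables held identical values, and no libraries were duplicates. Positions and gene classes were taken from GENCODE M21, to which 55240 identifiers matched, while the study names release M23. The 181 unmatched identifiers held 0.00196% of the counts. Promoters came from RefSeq.

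Both tables were joined on gene identifier. The 3 Tyk2wt and 7 Tyk2fl libraries were filtered with filterByExpr (minimum count 10), scaled by TMM and compared with the quasi-likelihood F test of edgeR 4.0.16 in R 4.3.3, with Benjamini-Hochberg adjustment over all 17984 genes and 8 residual degrees of freedom. A gene is called at an adjusted p under 0.05 and over 2-fold, and members of lists are counted at the adjusted p alone. Tyk2DIEC and Tyk2KO libraries were compared in the same way. Members and the 41 gene lists were chosen with earlier results of these data known. Named genes are Tyk2, Nnt, sex-linked genes, genes of the study's text, the 12 largest non-overlapping protein-coding changes and up to 4 processed pseudogenes in each direction (only 1 was lower) at a mean of at least 1 CPM, and up to 3 members per list by adjusted p. Genes that differed alike in both pairs and genes of the window on chromosome X were added after their values were seen, as were a few others named for context. Alternatives were DESeq2 1.42.0, limma 3.58.1 (voom), other scalings and filters, 1 fit of all libraries, the replicate number as block, fewer Tyk2fl libraries, thinned libraries, left-out gene classes, a test against 1.5-fold and leaving out each library. Tyk2fl replicates 5 to 7 alone and GC and length curves were chosen after seeing the data. In simulated counts of the control pair (17984 genes), the test recovered 96 of 100 changed genes at 2-fold, 95 of 100 at 4-fold, and passed 12 unchanged genes. The changed genes were drawn only from genes above a minimum level, so recovery of genes with low counts was not tested. Each gene had the same spread in both groups, whereas the common coefficient of variation in the data was 13.2% in Tyk2wt and 21.9% in Tyk2fl libraries. Proteomics, histology and other assays of the study were not analysed here, and values of some genes are not reported.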

Additional observations from a re-analysis of the deposited data

Results flagged for a closer look

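Among the 7 Tyk2fl libraries, 16 of 171 measures had 1 library whose gap to the next was large against the whole range (above Dixon's critical value at the 95% level). Chance marks about 1 in 20 groups, and the measures are not independent. In replicate 4 the B cell genes Spib (2.47 CPM, next highest 0.891), Cd79b (2.645 CPM, next 0.747) and Pax5 (0.988 CPM, next 0.149) stood highest, as did the summed B cell markers (16.9 CPM, next 4.31). The mast cell protease gene Mcpt2 (94.9 CPM, next 28.6) and the summed mast cell markers (283.1 CPM, next 105.4) were also highest there. In replicate 7, Ebp (168.5 CPM), Rbm3 (517.2 CPM), Pparg (45.1 CPM) and Pdcd5-ps (4.665 CPM) stood above the others and Tmem181b-ps (13.7 CPM) below. Replicate 1 was lowest for Cd59a (3.96 CPM) and highest for Lyz1 (1314 CPM). Replicate 3 was highest for Notum (658.1 CPM) and Krt4 (4.79 CPM), and replicate 6 for Pkd1l1 (1.39 CPM). The part of these libraries in the group differences is given by the fits that leave each of them out.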

How the results depend on the processing

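Counts of genes are given as higher, lower and past the adjusted p alone, beside 127, 152 and 908. A stricter low-count filter gave 59 higher, leaving out pseudogenes 31 higher, and a test against 1.5-fold 20, 13 and 33. Leaving out mitochondrial, ribosomal protein and immunoglobulin genes gave 114, 120 and 830. DESeq2 gave 239 lower and 1884 past the adjusted p, and 1 fit of all 17 libraries 241 and 2234. Tyk2fl replicates 4 to 7 alone gave 77, 89 and 418, and GC and length curves 547 past the adjusted p. With 1 library left out, counts ran from 23 to 140 higher, from 15 to 196 lower and from 47 to 1488 past the adjusted p. The lowest were without Tyk2wt replicate 3, and the count past the adjusted p was 403 without Tyk2fl replicate 2, 572 without replicate 6 and 1488 without replicate 7. Between Tyk2DIEC and Tyk2KO, 153 genes were called, 82 to 172 with 1 library left out and 82 without Tyk2KO replicate 2. The cause was not tested. Calls higher were 45.5% of all calls, 34.5% under the stricter filter, 33.5% with limma voom, 19.4% without pseudogenes and 60.5% without Tyk2wt replicate 3. The sign of no named gene that passed was reversed under any alternative run. 

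With a replicate block the counts were 4, 13 and 21, with 0 members of the type I, interferon gamma and MHC lists past the adjusted p. The numbers do not pair the samples, since correlations of same-numbered libraries were -0.08, 0.02 and -0.13, and the 3 shared numbers leave few libraries to compare within a number.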

Other observations

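Of 76 cytosolic ribosomal protein genes none passed in edgeR, with a median log2 fold change of 0.01. Mitochondrially encoded messages had a median of 0.64 with 0 of 7 past the adjusted p in edgeR. With other fits more of the 7 were higher, 6 with Tyk2fl replicates 5 to 7 alone, 5 with DESeq2, 4 after GC and length curves, and 3 with Tyk2fl replicates 4 to 7 or with all 17 libraries. Of 16 circadian clock genes 1 was higher and 1 lower at the adjusted p, against 2.1% and 2.95% of all genes. The median of this list was -0.12. Per1 was higher by 0.59 and passed in 4 of 10 fits without 1 library. Arntl, its activator, changed by -0.50 and passed in 8 of 10. Of 14 immediate-early genes, Fosb changed by -1.78 and Atf3 by -0.71, both lower in Tyk2fl tumors without overlap of the groups, while the median of the list was 0.15. Fosb was at 16.1, 26.6 and 25.4 CPM in Tyk2wt and 3.40 to 10.6 CPM in Tyk2fl libraries.
Nnt, a gene that differs between C57BL/6 substrains, was near the limit of detection in both groups, at 0.431 to 0.719 CPM in Tyk2wt and 0.32 to 0.985 CPM in Tyk2fl libraries.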
